A study of Mus musculus with 4 samples.

Results

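Batch B was compared with batch A across the 4 arrays of the study, which measured RNA from colon adenoma organoids of mice, that is, tumour epithelium grown in 3 dimensions. The labels give a batch letter to every array. Batch A held 2 arrays and batch B held 2, so the comparison used 4 of 4 arrays and 11874 of 17097 genes. The labels do not say whether the letter marks a culture, an RNA preparation, an amplification or a hybridisation, and these cannot be told apart here.

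Each batch held 1 array of Apc null organoids and 1 of Gata6 null/Apc null organoids. Apc null organoids came from VillinCreERT2 Gata6+/+ Apc fl/fl mice, and Gata6 null/Apc null organoids from VillinCreERT2 Gata6 fl/fl Apc fl/fl mice, all on a C57BL/6 background. VillinCreERT2 is a tamoxifen-inducible Cre recombinase under the promoter of Villin, a gene of the intestinal epithelium, so in all cultures Apc had been deleted in epithelial cells. All cultures were 7 days old at harvest, in medium that held EGF (50 ng/ml) and, when cells were passaged, a ROCK inhibitor. The sources used here do not give the age or sex of the mice or how many stand behind a culture. The design text calls the arrays biological replicates. Values are log2 RMA expression levels of 1 probe set per gene, and pairs of values are given with the Apc null array first and the Gata6 null/Apc null array second.

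Organoids of Apc-deleted epithelium grow as cysts of cycling cells, because loss of Apc stabilises beta-catenin and keeps the Wnt programme on. Within such cysts the supply of oxygen, nutrients and growth factors differs with size, density and the time since the last change of medium. When oxygen falls, prolyl hydroxylases stop marking the HIF transcription factors for degradation, and HIF raises genes of glycolysis, pH control and blood vessel growth. Growing cells in turn express genes of DNA replication, driven by E2F factors, and genes of ribosome assembly, many of them targets of MYC.

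Array medians ran from 4.91 to 5.04. The median of 13 epithelial markers was 10.94 and 10.57 in batch A and 10.81 and 10.85 in batch B. Of 18 fibroblast markers on the array, 5 passed the filter on dim genes, and the median of all 18 lay between 3.82 and 4.01. Of those 5, Fbln1, which encodes a matrix protein, was bright, at 9.84 and 8.80 in batch A and 9.75 and 9.62 in batch B, and the other 4 read 5.93 or less. Immune markers had medians of 4.01 to 4.29 and endothelial markers of 4.28 to 4.45, all near or below the filter level of 4.45. Gata6 read 8.89 and 9.37 in batch A and 8.61 and 9.40 in batch B (log2 difference -0.12, SE 0.13, adjusted p = 0.545). Apc read 8.35 and 8.34 in batch A and 8.34 and 8.14 in batch B (log2 difference -0.11, SE 0.14, adjusted p = 0.643). The Gata6 signal went against the labels: on the log2 scale Gata6 null/Apc null arrays read 0.64 above Apc null arrays (adjusted p = 0.0392 for genotype). Where these probe sets lie relative to the deleted exons is not known, so they do not check the labels.

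In batch B, genes of hypoxia and glycolysis were higher, and genes of DNA replication and ribosome assembly were lower, in both genotypes. With genotype as a block, limma called 1977 of 11874 genes (16.6%) at an adjusted p under 0.05. Of these, 894 (7.53%) rose in batch B and 1083 (9.12%) fell. The median fold of the genes that passed was 1.74, and 537 of them were 2-fold or more apart, 325 higher and 212 lower. In the same fit 817 genes (6.88%) passed for genotype. The median absolute log2 difference over all genes was 0.25 between batches and 0.16 between genotypes. By spread the order was the other way, with an SD over genes of 0.49 between batches and 0.54 between genotypes. Arrays of the same genotype correlated across batches at 0.9637 (Apc null) and 0.9553 (Gata6 null/Apc null). Arrays of the same batch correlated across genotypes at 0.9515 (batch A) and 0.9529 (batch B).

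The batch difference could be read separately in each genotype, from arrays that the other genotype does not share. Across genes, the log2 difference in the Apc null arrays and that in the Gata6 null/Apc null arrays correlated at 0.675, as a description over genes that are not independent replicates, and the sign was shared for 73.4% of them. In both genotypes, 181 genes (1.52%) were at least 2-fold higher in batch B and 122 (1.03%) at least 2-fold lower, while 3 passed that size in opposite directions. The median log2 difference over all genes was -0.06, which is the level the gene groups are read against. Both batch B arrays lay above both batch A arrays for 2488 genes (21%) and below them for 3929 (33.1%).

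**Figure D1:**
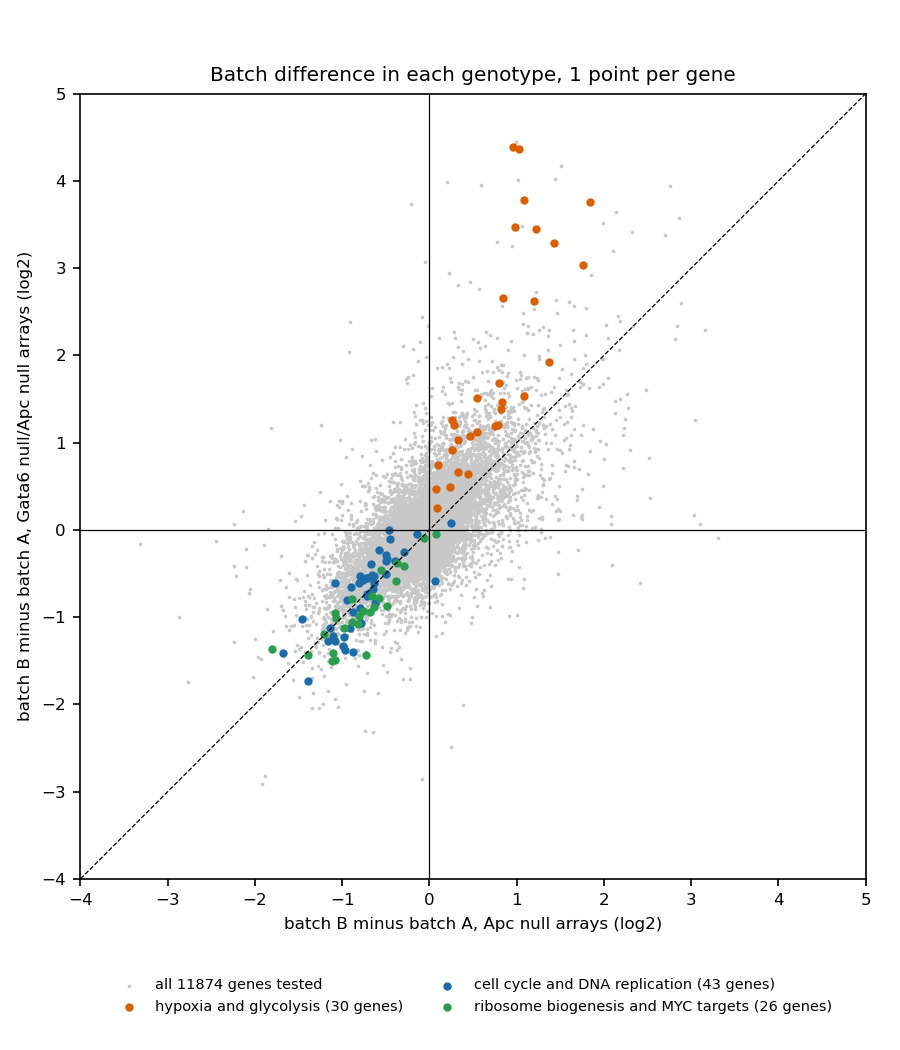
Each point is 1 of 11874 genes, with batch B minus batch A (log2) in the Apc null arrays on the x axis and in the Gata6 null/Apc null arrays on the y axis; the dashed line marks equal differences. The 30 hypoxia and glycolysis genes lie above 0 in both genotypes and above the dashed line, and most of the 43 cell cycle and 26 ribosome biogenesis genes lie below 0 in both.

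The precision of these calls is limited by the number of arrays. With genotype as a block limma has 1 residual degree of freedom and gains 4.99 from its moderation across genes. Without that block the genotype difference enters the spread, and limma called 0 genes (2432 at an unadjusted p under 0.05). Leaving out 1 array of a batch unbalances the genotypes, which moves a difference by as much one way as leaving out the other array of that batch moves it the other way. Of the 1977 genes, 519 (26.3%) had a difference over 1.5 times smaller, or of the other sign, without 1 array. Where a gene given with its change is one of these, the value is printed in the same paragraph with the array that was left out. For 33 of the 894 genes that rose, the batch A mean lay below the filter level of 4.45, and for 32 of the 1083 that fell the batch B mean did. Such genes passed the filter only through the batch where they were brighter.

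Hypoxia and glycolysis genes had the largest share of higher members of the 40 lists. Of 30 members tested, 23 rose and 0 fell, against 7.53% and 9.12% of all genes, and the median log2 difference was 1.07. For each of the 30, both batch B arrays lay above both batch A arrays, against 21% of all genes. The rise was larger in the Gata6 null/Apc null arrays for 30 of 30 members, with a median of 1.43, than in the Apc null arrays, with a median of 0.79. That difference was not tested. Over all genes the SD of the log2 difference was 0.56 in the Gata6 null/Apc null arrays and 0.50 in the Apc null arrays. The share of all genes with a larger change in that genotype, or with their lowest level on a given array, was not counted. The batch A Gata6 null/Apc null array had the lowest level for 29 of the 30. Without it the median difference was 0.79, and it was 1.47 when the other batch A array was left out in its place.

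Enzymes of collagen and disulphide chemistry that HIF controls were among those that rose most. P4ha2, a prolyl hydroxylase that modifies collagen, read 7.06 and 5.59 in batch A and 8.90 and 9.36 in batch B. Its log2 difference was 2.80 (SE 0.42, limma adjusted p = 0.0153). Ero1a, the oxidase that forms disulphide bonds in the endoplasmic reticulum, read 9.67 and 7.80 in batch A and 11.42 and 10.83 in batch B (log2 difference 2.39, SE 0.28, adjusted p = 0.0115). Its difference was 1.75 in the Apc null arrays and 3.03 in the others. Plod2, a lysyl hydroxylase of collagen that was not in the list, read 6.32 and 5.22 in batch A and 8.46 and 8.86 in batch B, a 7.41-fold rise (adjusted p = 0.0117). For these 3 genes the batches did not overlap, and the low array was each time the batch A Gata6 null/Apc null array. Ero1a differed by 1.46 without the batch A Gata6 null/Apc null array.

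Among metabolic genes, those with large differences included a lactate exporter and an adenylate kinase. Slc16a3, the lactate exporter MCT4, read 9.76 and 6.52 in batch A and 10.79 and 10.88 in batch B. Its log2 difference of 2.69 (SE 0.69, adjusted p = 0.0484) was 1.03 in the Apc null arrays and 4.36 in the Gata6 null/Apc null arrays. Ak4, a mitochondrial adenylate kinase outside the list, had the same form, at 8.85 and 5.96 against 9.87 and 9.97 (log2 difference 2.51, adjusted p = 0.045). For both genes the size thus rested largely on 1 dim array of batch A: without it the log2 difference was 1.07 for Slc16a3 and 1.07 for Ak4. Averaging all probe sets of a gene gave an adjusted p of 0.0562 for Slc16a3, whose difference stayed at 2.69. For Ak4 it gave a difference of 1.31 and an adjusted p of 0.0672.

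Steps that commit glucose to glycolysis rose by 1.10 to 1.31 at the members with the smallest p. Pfkfb3, which makes the activator of phosphofructokinase, read 7.52 and 7.04 in batch A and 8.60 and 8.58 in batch B (log2 difference 1.31, SE 0.17, adjusted p = 0.0129). Hk1, a hexokinase, read 9.85 and 8.96 in batch A and 10.67 and 10.35 in batch B (log2 difference 1.10, SE 0.14, adjusted p = 0.0129). Adm, the vasodilator peptide adrenomedullin, read 5.34 and 5.01 in batch A and 6.71 and 6.93 in batch B (log2 difference 1.64, SE 0.21, adjusted p = 0.0126). These 3 genes separated the batches by more than the spread within them. Hk1 differed by 0.66 without the batch A Gata6 null/Apc null array.

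Further members were chosen after their values were seen. The angiogenic factor Vegfa read 8.36 and 6.76 in batch A and 9.56 and 9.39 in batch B, a log2 difference of 1.91 (adjusted p = 0.0182). Among genes that feed back on HIF, Egln3 rose by 2.23 and Egln1 by 0.54. Ankrd37 rose by 2.33, Bnip3, a mitophagy receptor, by 2.43 and Pdk1, which holds pyruvate back from mitochondria, by 1.75. The aldolase genes rose by 2.36 for Aldoc and 0.50 for Aldoa, the glucose transporter gene Slc2a1 by 0.77 and Pgk1 by 0.59. Members that did not pass were Car9, Bnip3l, Pfkl, Ldha, Tpi1, Pkm and Pfkfb4. Car9, a carbonic anhydrase of the cell surface, read 9.33 and 5.86 in batch A and 10.28 and 10.25 in batch B, with an adjusted p of 0.0539. Ldha, the enzyme that makes lactate, read 12.11 and 11.73 against 12.18 and 12.20 (adjusted p = 0.103). Vegfa, Egln3, Ankrd37, Bnip3, Pdk1, Aldoa, Slc2a1 and Pgk1 differed by 1.11, 0.88, 1.23, 1.36, 0.88, 0.33, 0.32 and 0.29 without the batch A Gata6 null/Apc null array.

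**Figure D2:**
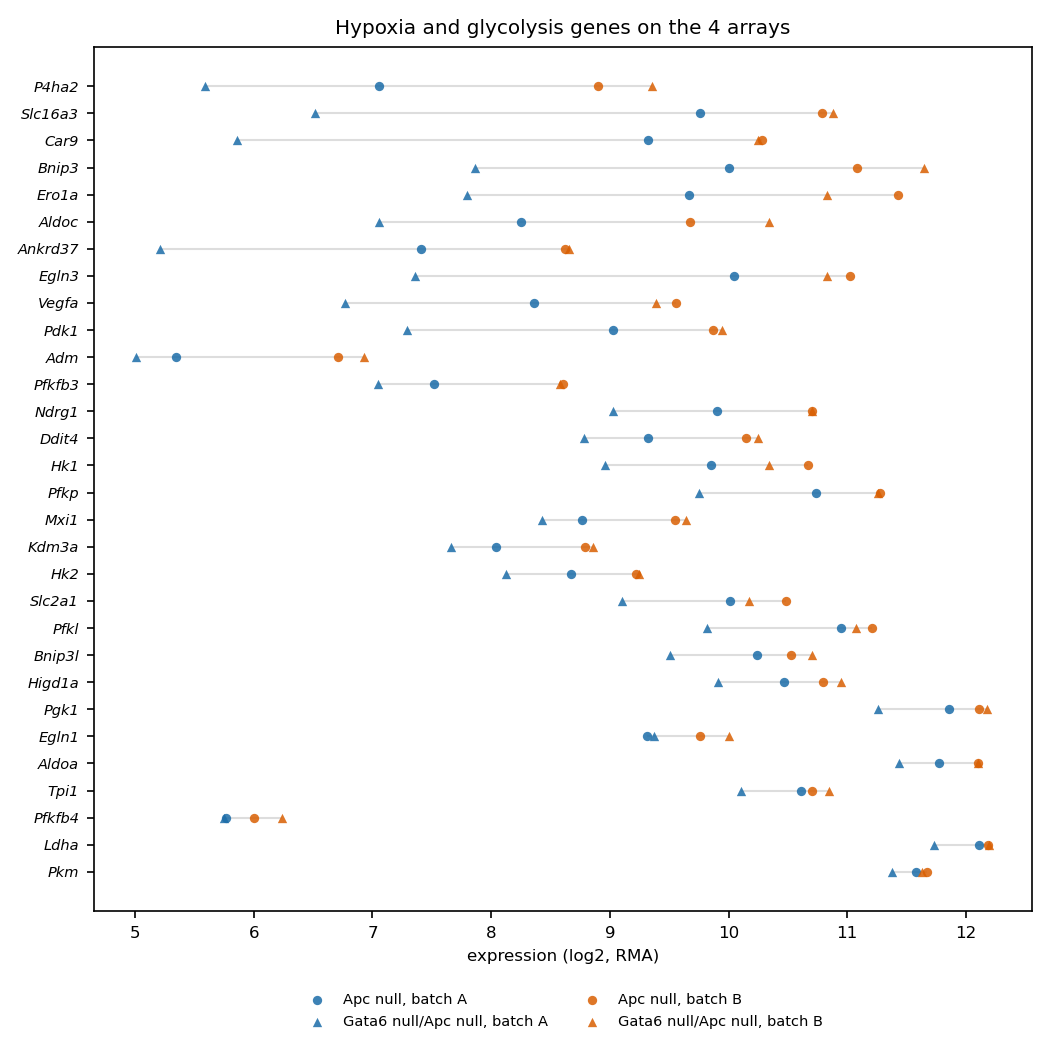
Each line is 1 of 30 hypoxia and glycolysis genes, with expression (log2, RMA) on the x axis and 1 symbol per array; circles are Apc null, triangles Gata6 null/Apc null, blue batch A and orange batch B. Both orange symbols lie to the right of both blue ones for every gene, and the blue triangle is leftmost for 29 of 30.

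HIF binds a short core, ACGTG, which also stands inside the E-box CACGTG. The 250 bases before the start of transcription were searched on both strands in RefSeq promoters of GRCm38.p6. Of 23 members that rose, 22 had a promoter there and 15 had the core (68.2%, against 24.9% of tested genes with a promoter). It was found in 18 of their 33 promoters (54.5%), against 16.6% of all 32851 promoters and 21.4% of those of tested genes. The promoters shown are the 3 of members that rose with the most matches, with the core in capitals (CACGT where it lies on the other strand), 5′ to 3′ on the strand of the gene. Hk2 is at chr6:82774455-82774704 on the minus strand, Ankrd37 at chr8:45999851-46000100 on the minus strand and Pgk1 at chrX:106186850-106187099 on the plus strand.
Hk2: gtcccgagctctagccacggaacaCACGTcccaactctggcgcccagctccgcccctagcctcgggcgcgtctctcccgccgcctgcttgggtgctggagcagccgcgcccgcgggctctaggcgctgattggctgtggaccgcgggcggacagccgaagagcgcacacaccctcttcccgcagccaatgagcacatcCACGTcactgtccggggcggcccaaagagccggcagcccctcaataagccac
Ankrd37: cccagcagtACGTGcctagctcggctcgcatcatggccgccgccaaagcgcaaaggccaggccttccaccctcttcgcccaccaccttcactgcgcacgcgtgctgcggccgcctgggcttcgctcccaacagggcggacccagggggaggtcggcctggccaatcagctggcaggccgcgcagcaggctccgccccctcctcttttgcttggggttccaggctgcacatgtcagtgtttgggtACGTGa
Pgk1: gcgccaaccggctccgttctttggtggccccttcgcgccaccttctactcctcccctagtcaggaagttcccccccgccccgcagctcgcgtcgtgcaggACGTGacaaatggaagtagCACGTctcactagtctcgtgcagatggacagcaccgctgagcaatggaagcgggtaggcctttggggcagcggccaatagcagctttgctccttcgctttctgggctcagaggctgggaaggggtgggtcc
In Hk2 the matches began 226 and 52 bases before the start, in Ankrd37 241 and 6, and in Pgk1 150 and 131. A match describes letters in these windows and no binding. The list was chosen for hypoxia and glycolysis, so a high share of the core describes the list and not the batch difference. Members that did not pass were not counted for comparison.

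Genes of the cell cycle were lower in batch B. Of 43 members tested, 31 fell and 0 rose, against 9.12% and 7.53% of all genes, and the median log2 difference was -0.71. It was -0.73 in the Apc null arrays and -0.61 in the Gata6 null/Apc null arrays. For 39 of the 43 (90.7%) both batch B arrays lay below both batch A arrays, against 33.1% of all genes. In bulk RNA, fewer cells of a kind and less RNA per cell cannot be told apart.

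Genes that license origins of replication were among those that fell. Cdc6, which loads the replicative helicase, read 8.50 and 7.90 in batch A and 6.81 and 6.48 in batch B (log2 difference -1.55, SE 0.17, limma adjusted p = 0.0115). The helicase subunit gene Mcm6 read 9.32 and 9.11 in batch A and 8.24 and 7.84 in batch B (log2 difference -1.18, SE 0.13, adjusted p = 0.0115). Mcm3 differed by -1.10 (SE 0.10) and Mcm5 by -0.93 (SE 0.09), each with an adjusted p of 0.0115. Mcm2, Mcm4 and Mcm7, named after their values were seen, fell by 1.16, 1.16 and 0.85. All 6 genes of the MCM2 to MCM7 helicase in the list therefore passed, and for each the batches did not overlap.

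Enzymes of the replication fork and of nucleotide supply were lower as well. Tyms, thymidylate synthase, read 10.39 and 10.36 in batch A and 9.43 and 8.99 in batch B (log2 difference -1.17, SE 0.12, adjusted p = 0.0115). Fen1, the flap endonuclease that trims Okazaki fragments, was among the 15 largest decreases and outside the list. It read 7.67 and 7.21 in batch A and 5.74 and 5.73 in batch B (log2 difference -1.70, SE 0.20, adjusted p = 0.0115). The ribonucleotide reductase genes Rrm1 and Rrm2 fell by 0.73 and 1.14, and Pcna, the sliding clamp, by 0.50. Averaging all probe sets of a gene gave an adjusted p of 0.0779 for Mcm5 and 0.076 for Tyms.

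Transcription factors of the G1 to S transition fell too. Mybl2, an activator of cell cycle genes, read 8.20 and 7.79 in batch A and 6.81 and 6.06 in batch B (log2 difference -1.56, SE 0.18, adjusted p = 0.0115). E2f7, a repressive E2F that is itself an E2F target, read 7.40 and 7.14 in batch A and 5.38 and 5.46 in batch B (log2 difference -1.85, SE 0.19, adjusted p = 0.0115). In the list, E2f1, E2f2 and E2f8 fell by 0.91, 0.66 and 1.24, and Ccne1, the cyclin of S phase entry, by 1.22.

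Genes with roles in mitosis included some that passed and some that did not. Ccna2 fell by 0.71, Cdk1 by 0.59, Plk1 by 0.59, Cdc20 by 0.62 and Aurkb by 0.43. The proliferation marker Mki67 read 10.16 and 10.03 in batch A and 9.86 and 9.77 in batch B (log2 difference -0.27, adjusted p = 0.0828), and Top2a differed by -0.39 (adjusted p = 0.0894). Cenpf read 8.73 and 8.86 in batch A and 8.59 and 8.82 in batch B, which overlapped (adjusted p = 0.641). The D-type cyclins, which respond to growth factors, did not pass: Ccnd1 read 11.26 and 11.36 against 11.32 and 10.78, and Ccnd2 read 11.69 and 11.48 against 11.94 and 11.56. Ccnd2 was the 1 member with a difference above 0 (0.16, adjusted p = 0.145).

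E2F factors bind sites such as TTTCCCGC and TTTGGCGC. Of 31 cell cycle members that fell, 25 had a promoter in the table and 5 had such a site on either strand (20%, against 2.73% of tested genes with a promoter). It was in 5 of their 28 promoters (17.9%), against 1.30% of all 32851 promoters and 2.25% of those of tested genes. The 2 promoters shown are those of helicase subunit genes that fell, with sites in capitals (GCGCCAAA where the site lies on the other strand). Mcm6 is at chr1:128359706-128359955 on the minus strand and Mcm5 at chr8:75109259-75109508 on the plus strand.
Mcm6: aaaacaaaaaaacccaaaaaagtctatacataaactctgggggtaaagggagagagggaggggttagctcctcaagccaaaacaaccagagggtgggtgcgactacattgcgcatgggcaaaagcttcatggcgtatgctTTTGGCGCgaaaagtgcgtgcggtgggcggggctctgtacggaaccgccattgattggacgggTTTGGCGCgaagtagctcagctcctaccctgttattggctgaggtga
Mcm5: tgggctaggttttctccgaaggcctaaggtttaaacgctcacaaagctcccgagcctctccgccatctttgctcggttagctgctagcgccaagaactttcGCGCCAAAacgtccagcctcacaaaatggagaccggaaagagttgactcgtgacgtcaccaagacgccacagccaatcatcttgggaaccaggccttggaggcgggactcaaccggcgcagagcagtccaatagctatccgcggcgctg
The sites began 110 and 47 bases before the start in Mcm6 and 149 bases before it in Mcm5. The list was chosen for the cell cycle and DNA replication, so this share too describes the list and not the batch difference. Members that did not pass were not counted here either.

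Inhibitors of the cell cycle rose where they passed. Of 20 such genes and p53 targets, 5 rose (25%) and 0 fell, against 7.53% and 9.12% of all genes. The median log2 difference of the list was 0.33. Cdkn1a, the inhibitor p21, read 10.74 and 10.68 in batch A and 11.31 and 11.33 in batch B (log2 difference 0.61, SE 0.07, limma adjusted p = 0.0115). Cdkn2b, the inhibitor p15, read 7.96 and 7.24 in batch A and 8.83 and 8.23 in batch B (log2 difference 0.93, SE 0.14, adjusted p = 0.0163). Cdkn1b, the inhibitor p27, rose by 0.46 (adjusted p = 0.0384, and 0.0619 with probe sets averaged). For these 3 inhibitors both batch B levels lay above both batch A levels. Trp53inp1 rose by 0.74, but its batch A pair of 9.39 and 10.52 overlapped its batch B pair of 10.47 and 10.92. Cdkn2b differed by 0.56 without the batch A Gata6 null/Apc null array. Trp53inp1 differed by 0.17 without the batch A Apc null array. Cdkn1b differed by 0.26 without the batch B Gata6 null/Apc null array.

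Ribosome biogenesis genes had the largest share of lower members of the 40 lists. Of 26 members, 24 fell (92.3%) and 0 rose, against 9.12% and 7.53% of all genes. The median log2 difference was -0.87. It was -0.78 in the Apc null arrays and -0.95 in the Gata6 null/Apc null arrays. Both batch B arrays lay below both batch A arrays for 25 of the 26 (96.2%), against 33.1% of all genes. Of the 26, 7 were at least 2-fold lower in both genotypes, against 1.03% of all genes.

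The members that passed span the steps of ribosome assembly. Nop58, a core protein of box C/D small nucleolar RNPs, read 10.25 and 10.19 in batch A and 9.27 and 9.07 in batch B (log2 difference -1.05, SE 0.10, limma adjusted p = 0.0115). Dkc1, the pseudouridine synthase of box H/ACA particles, read 10.67 and 10.59 in batch A and 9.86 and 9.51 in batch B (log2 difference -0.95, SE 0.10). Ncl, nucleolin, which binds nascent ribosomal RNA, read 8.45 and 8.18 in batch A and 6.64 and 6.82 in batch B (log2 difference -1.59, SE 0.18). Grwd1, a nucleolar chaperone outside the list, read 8.69 and 8.69 in batch A and 7.35 and 6.82 in batch B (log2 difference -1.61, SE 0.18). All 4 had an adjusted p of 0.0115, and their batch pairs did not overlap.

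Genes of metabolism in the same list fell as well. Srm, spermidine synthase, read 9.92 and 9.64 in batch A and 8.82 and 8.24 in batch B (log2 difference -1.26, SE 0.12, adjusted p = 0.0115). Odc1, which makes the precursor putrescine, fell by 1.08, and Cad, which starts pyrimidine synthesis, by 1.29. Nme1, a nucleoside diphosphate kinase, fell by 0.71. RNA polymerase I genes were lower too, Polr1a by 0.81 and Polr1b by 1.20 on the log2 scale. The members that did not pass were Npm1, with a log2 difference of -0.08, and Eif4e, at 0.01. Kti12 and Trmt61a, which act in tRNA modification, were among the 15 largest decreases, at log2 differences of -1.72 and -1.70. Odc1 and Polr1a differed by -0.70 and -0.51 without the batch B Gata6 null/Apc null array.

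Of 28 cytosolic ribosomal protein genes, limma called 0 in either direction (0 at an unadjusted p under 0.05, against 3986 of all 11874 genes). Their log2 differences ran from -0.09 to 0.09. The member with the smallest p, Rplp0, read 12.18 and 12.16 in batch A and 12.10 and 12.08 in batch B (adjusted p = 0.29). These are bright probe sets, and no saturation measure was used here. The E-box CACGTG, which MYC binds, stood before 2 of the 18 biogenesis members that fell and had a promoter (11.1%), against 9.89% of tested genes, which is near that background. Counted by promoter it was in 3 of 21 (14.3%), against 6.02% of all promoters and 8.21% of those of tested genes.

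**Figure D3:**
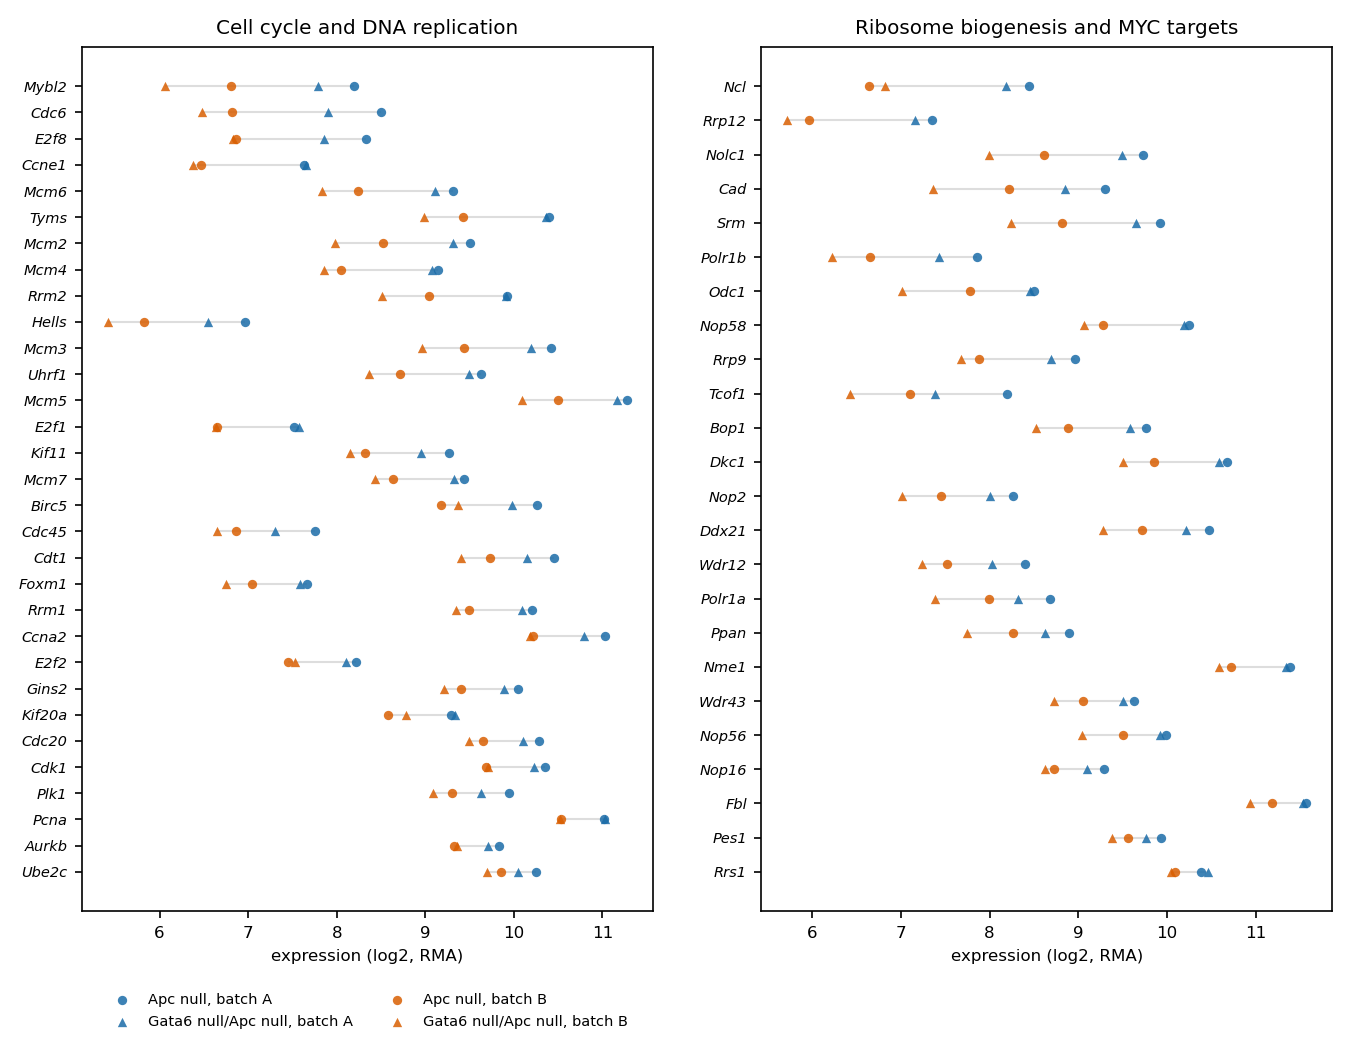
Expression (log2, RMA) of the 31 cell cycle genes (left) and 24 ribosome biogenesis genes (right) that fell in batch B, 1 line per gene and 1 symbol per array; circles are Apc null, triangles Gata6 null/Apc null, blue batch A and orange batch B. The orange symbols lie to the left of the blue ones, as for Mcm6 (8.24 and 7.84 against 9.32 and 9.11) and Nop58 (9.27 and 9.07 against 10.25 and 10.19).

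Genes of mitochondrial respiration had small differences, mostly below 0. Of 36 oxidative phosphorylation genes, 3 fell (8.33%) and 0 rose, against 9.12% and 7.53% of all genes. The share that fell was thus near that of all genes. Of the 36, 30 had a difference below 0, and the median log2 difference was -0.10, against -0.06 over all genes. Those that fell were Atp5g1, a subunit of the ATP synthase ring, by 0.68, Cycs, cytochrome c, by 0.42 and Cyc1, of complex III, by 0.30. With probe sets averaged the adjusted p was 0.116 for Atp5g1 and 0.0639 for Cycs. For Cyc1 it was 0.0538 at an unchanged difference. The levels of 21 members (58.3%) were lower in both batch B arrays than in both batch A arrays, against 33.1% of all genes.

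Of 14 heat shock genes, 5 fell (35.7%) and 0 rose, against 9.12% and 7.53% of all genes. The median log2 difference of the list was -0.21. Hsph1, a co-chaperone of HSP70, read 9.18 and 9.21 in batch A and 8.49 and 8.58 in batch B (log2 difference -0.66, SE 0.12, limma adjusted p = 0.0202). Hsp90aa1, the inducible HSP90, read 10.60 and 10.57 in batch A and 10.16 and 10.13 in batch B (log2 difference -0.44, SE 0.08, adjusted p = 0.0208). Dnaja1 and Dnajb1, which are HSP40 co-chaperones, fell by 0.54 and 0.47, and Hspe1, the mitochondrial cochaperonin, by 0.28. Dnajb1 had an adjusted p of 0.107 with probe sets averaged. Of 28 genes of the unfolded protein response, 1 fell (3.57%), Dnajb11, by 0.45, and 0 rose. Dnaja1 differed by -0.33 without the batch B Apc null array.

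Genes of the ATF4 response, which follows amino acid shortage and other stresses, had more members higher than lower. Of 29 members, 10 rose (34.5%) and 2 fell (6.90%), against 7.53% and 9.12% of all genes. The median log2 difference of the list was 0.30. The median turned to -0.11 when the batch A Gata6 null/Apc null array was left out and to -0.07 when the batch B Apc null array was, since either omission leaves the genotypes unbalanced; within the genotypes it was 0.14 and 0.35. Aldh1l2, a mitochondrial enzyme of folate metabolism, read 6.48 and 5.81 in batch A and 8.64 and 8.26 in batch B (log2 difference 2.31, SE 0.17, adjusted p = 0.00848). Vldlr, a lipoprotein receptor, read 6.99 and 6.38 in batch A and 8.24 and 8.34 in batch B (log2 difference 1.61, SE 0.21, adjusted p = 0.0132). Ddit4, an inhibitor of mTORC1 that HIF also induces and that the hypoxia list holds as well, rose by 1.15. Further members that rose included the stress regulators Ddit3 (1.02), Trib3 (0.95) and Chac1 (1.27). Those that fell were Slc7a1, the transporter of cationic amino acids, by 0.73 and Phgdh, the first enzyme of serine synthesis, by 0.54. Asns, asparagine synthetase, read 10.14 and 9.09 against 10.27 and 9.45 and did not pass (adjusted p = 0.149). Slc38a2, another amino acid transporter, rose by 0.62 (adjusted p = 0.104 with probe sets averaged). Another of its probe sets differed by -0.26, the single exception in sign among 75 other probe sets of the named genes that passed. Ddit3, Trib3 and Chac1 differed by 0.62, 0.092 and 0.30 without the batch A Gata6 null/Apc null array. Slc7a1 differed by -0.28 without the batch B Gata6 null/Apc null array. Trib3 and Chac1 differed by 0.10 and 0.72 without the batch B Apc null array.

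NRF2 targets, which handle oxidants and electrophiles, had 5 of 29 members higher (17.2%) and 0 lower, against 7.53% and 9.12% of all genes. The median log2 difference of the list was 0.11. Gstt1, a glutathione transferase, read 6.30 and 5.93 in batch A and 7.76 and 8.56 in batch B (log2 difference 2.04, SE 0.30, adjusted p = 0.0149). Hmox1, heme oxygenase, read 7.32 and 6.08 in batch A and 8.02 and 7.51 in batch B (log2 difference 1.06, adjusted p = 0.0306). Me1, malic enzyme, rose by 1.00 and Gstm2 by 0.78. Of 24 genes of apoptosis and autophagy, 6 rose (25%) and 0 fell, with a median of 0.10. Casp8, the initiator caspase of death receptors, rose by 0.63, the lysosomal protease gene Ctsd by 0.53, and the autophagosome genes Map1lc3a and Gabarapl1 by 0.49 and 0.50. Hmox1 differed by 0.45 without the batch A Gata6 null/Apc null array. Map1lc3a differed by 0.28 without the batch A Apc null array.

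Of 19 stem cell markers 4 rose (21.1%) and 1 fell (5.26%), and of 26 Wnt target genes 5 rose (19.2%) and 0 fell, against 7.53% and 9.12% of all genes, with medians of 0.27 and 0.31. Lgr5, the R-spondin receptor of crypt base stem cells, read 9.16 and 6.39 in batch A and 9.72 and 7.55 in batch B (log2 difference 0.86, SE 0.18, limma adjusted p = 0.0319). Its level differed more between genotypes than between batches, so the batch pairs overlapped, with batch B above batch A within each genotype. Tert, the telomerase reverse transcriptase, read 5.58 and 5.78 in batch A and 7.30 and 7.42 in batch B (log2 difference 1.68, SE 0.18, adjusted p = 0.0115). Bmi1, a Polycomb protein used as a marker of reserve stem cells, read 7.44 and 7.24 in batch A and 5.98 and 6.14 in batch B (log2 difference -1.28, SE 0.19, adjusted p = 0.0158). Mmp7, a Wnt target that activates defensins, rose by 0.82 (adjusted p = 0.0115). The Wnt targets Dkk2 and Sp5 rose by 0.75 and 0.62 in batch pairs that overlapped across genotypes. Lgr5 and Mmp7 differed by -0.53 and 0.45 without the batch A Gata6 null/Apc null array. Dkk2 and Sp5 differed by -0.44 and -0.90 without the batch A Apc null array. Dkk2 and Sp5 differed by -0.35 and -0.99 without the batch B Gata6 null/Apc null array. Lgr5 and Mmp7 differed by -0.23 and 0.42 without the batch B Apc null array.

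Absorptive markers had 5 of 26 higher (19.2%) and 1 lower (3.85%), against 7.53% and 9.12% of all genes. The median log2 difference of the list was 0.08. Car1, carbonic anhydrase of colonocytes, read 10.37 and 8.67 in batch A and 11.50 and 9.75 in batch B (log2 difference 1.11, SE 0.08, adjusted p = 0.00848). Cdhr2, a protocadherin that links brush border microvilli, rose by 1.05 and the peptidase gene Dpp4 was counted as higher at 3.93 and 4.39 in batch A and 5.17 and 5.32 in batch B; its batch A mean lay below the filter level of 4.45, so it was tested only through batch B. Myo1a, the brush border myosin, read 8.98 and 8.85 in batch A and 7.91 and 7.67 in batch B (log2 difference -1.12, SE 0.13, adjusted p = 0.0115). Genes of the same brush border thus lay on both sides. Car1 and Cdhr2 differed by 0.26 and 0.49 without the batch A Gata6 null/Apc null array. Car1 and Cdhr2 differed by 0.23 and 0.57 without the batch B Apc null array.

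Of 8 Paneth and deep crypt secretory markers 3 rose (37.5%) and 1 fell (12.5%), against 7.53% and 9.12% of all genes. Those that rose were Mmp7, also in the Wnt target list, Nupr1, also in the ATF4 list, and Spink4. The 1 that fell was Defa3, a Paneth cell defensin, by 0.98 (adjusted p = 0.0172). Of 13 enteroendocrine markers 2 rose (15.4%) and 0 fell, and of 19 goblet cell markers 2 rose and 2 fell (10.5% each). Atoh1, the factor that commits cells to the secretory lineage, read 8.32 and 6.78 in batch A and 7.04 and 6.18 in batch B (log2 difference -0.94, SE 0.22, adjusted p = 0.0399). Its batch pairs overlapped across genotypes, as did those of Spink4, which rose by 0.70. The hormone gene Pyy rose by 0.74 and Cpe, a prohormone processing enzyme, by 1.21. Of 6 tuft cell markers limma called 0 (2 at an unadjusted p under 0.05, against 3986 of all 11874 genes). The smallest p was for Gng13 (log2 difference -0.56, adjusted p = 0.11) and Avil (0.72, adjusted p = 0.123). Spink4 differed by -1.39 without the batch A Gata6 null/Apc null array. Atoh1 differed by -0.17 without the batch A Apc null array. Atoh1 differed by -0.51 without the batch B Gata6 null/Apc null array. Spink4 differed by -1.51 without the batch B Apc null array.

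Among factors of intestinal identity, 3 of 18 rose (16.7%) and 1 fell (5.56%), against 7.53% and 9.12% of all genes. Klf5, a zinc finger factor of crypt epithelium, read 8.40 and 8.52 in batch A and 9.73 and 9.52 in batch B (log2 difference 1.17, SE 0.13, adjusted p = 0.0115). Cdx1, a homeobox factor of the intestine, read 10.36 and 9.89 in batch A and 9.39 and 9.40 in batch B (log2 difference -0.73, SE 0.13, adjusted p = 0.0228). Elf3, an epithelial ETS factor, rose by 0.73 (adjusted p = 0.0468, and 0.0543 at an unchanged difference with probe sets averaged). Of 11 gastric and foregut genes, 1 rose (9.09%, near the share of all genes), the gastric protease gene Ctse, by 0.87. Elf3 differed by 0.34 without the batch A Gata6 null/Apc null array. Ctse differed by 0.53 without the batch A Apc null array.

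Markers of fetal and regenerating epithelium had 6 of 25 higher (24%) and 0 lower, against 7.53% and 9.12% of all genes. The median log2 difference of the list was 0.10. Il33, a cytokine released from damaged epithelium, read 6.33 and 5.40 in batch A and 8.09 and 7.26 in batch B (log2 difference 1.80, SE 0.18, limma adjusted p = 0.0115). Ccn2, a YAP and TGF-beta target, read 7.00 and 4.72 in batch A and 8.58 and 6.26 in batch B (log2 difference 1.56, SE 0.18, adjusted p = 0.0115). Clu, clusterin, rose by 0.74 and Msln, mesothelin, by 0.87. Of 25 keratins and squamous genes 3 fell (12%) and 1 rose (4%), near the shares of all genes (9.12% and 7.53%), with a median of -0.04. Krt6a, a keratin of stressed and squamous epithelium, read 7.46 and 8.83 in batch A and 4.59 and 7.83 in batch B (log2 difference -1.93, SE 0.42, adjusted p = 0.0329). Its batch pairs overlapped. Krt14 fell by 0.96 and Krt16 by 0.78. Ccn2, Clu, Msln and Krt6a differed by 0.42, -0.19, 0.44 and -1.25 without the batch A Gata6 null/Apc null array. Ccn2, Clu, Msln, Krt6a and Krt16 differed by 0.40, -0.01, 0.38, -0.31 and -0.49 without the batch B Apc null array.

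Of 20 EGF ligand and MAPK response genes 5 rose (25%) and 0 fell, against 7.53% and 9.12% of all genes. The median log2 difference of the list was 0.41. Etv4, an ETS factor induced by MAPK signalling, read 6.45 and 5.80 in batch A and 8.02 and 6.55 in batch B (log2 difference 1.15, SE 0.24, adjusted p = 0.0316). The MAPK feedback genes Spry4 and Dusp1 rose by 0.88 and 0.86, with Spry4 at an adjusted p of 0.147 when probe sets were averaged. Of 22 immediate early genes 4 rose (18.2%) and 0 fell, with a median of -0.01. Of 16 BMP and TGF-beta response genes 3 rose (18.75%) and 0 fell, among them Smad6, an inhibitor of BMP signalling, by 1.09. In the Notch pathway 1 of 13 genes rose (7.69%), near the share of all genes, and 2 fell (15.4%). Notch3, a receptor, read 5.63 and 5.64 in batch A and 7.66 and 7.99 in batch B (log2 difference 2.19, SE 0.19, adjusted p = 0.0111). Lfng, which modifies Notch receptors, fell by 0.88 and Dtx4 by 0.84. Dusp1 differed by 0.41 without the batch A Gata6 null/Apc null array. Smad6 and Dtx4 differed by 0.51 and -0.48 without the batch A Apc null array. Smad6 differed by 0.40 without the batch B Gata6 null/Apc null array. Etv4 differed by 0.42 without the batch B Apc null array.

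Interferon response genes had 8 of 29 members higher (27.6%) and 0 lower, against 7.53% and 9.12% of all genes. The median log2 difference of the list was 0.45. The median was 0.59 in the Apc null arrays and 0.35 in the others, and it was 0.23 when the batch B Apc null array was left out. Ifi27, an interferon-induced mitochondrial protein, read 8.67 and 8.06 in batch A and 10.66 and 9.73 in batch B (log2 difference 1.83, SE 0.12, limma adjusted p = 0.00848). Stat2, of the complex that carries the interferon signal to DNA, read 7.27 and 6.74 in batch A and 8.36 and 7.79 in batch B (log2 difference 1.07, SE 0.16, adjusted p = 0.015). Its partner Irf9 rose by 0.92. The nonclassical MHC gene H2-T23 rose by 1.06. H2-Q1, of the same class, read 4.07 and 4.59 in batch A and 6.17 and 7.78 in batch B; its batch A mean lay below the filter level of 4.45, so it was tested only through batch B. It belongs to a family of similar sequences, so its probe set may read more than 1 of them. Rsad2 and Ifit3, which respond strongly to interferon, did not pass and read 5.24 and 5.37 against 5.76 and 4.89, and 5.63 and 5.71 against 6.64 and 5.54.

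Inflammatory mediators had 1 of 24 higher and 1 lower (4.17% each), against 7.53% and 9.12% of all genes. Cxcl5, a chemokine for neutrophils, read 5.31 and 6.62 in batch A and 3.87 and 5.11 in batch B (log2 difference -1.48, SE 0.16, adjusted p = 0.0115). Of 7 immune cell markers 1 rose (14.3%), the lysosomal glycoprotein gene Cd68, from 5.92 and 4.94 to 7.57 and 7.23 (log2 difference 1.97, SE 0.22, adjusted p = 0.0115). The median of the immune markers was lower in batch B, at 4.01 and 4.09, than in batch A, at 4.29 and 4.20. No test of the immune median was made. Of 6 endothelial and 5 fibroblast markers limma called 0 (1 and 0 at an unadjusted p under 0.05, against 3986 of all 11874 genes). Cxcl5 differed by -0.82 without the batch A Gata6 null/Apc null array. Cxcl5 differed by -0.86 without the batch B Apc null array.

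Matrix genes had 7 of 26 members higher (26.9%) and 2 lower (7.69%), against 7.53% and 9.12% of all genes. The median log2 difference of the list was 0.26. Lama3, a chain of epithelial laminin, read 8.24 and 7.91 in batch A and 9.37 and 9.28 in batch B (log2 difference 1.25, SE 0.13, adjusted p = 0.0115). With probe sets averaged its difference was 0.49 (adjusted p = 0.0723). Fn1, fibronectin, read 6.75 and 8.44 in batch A and 8.41 and 9.23 in batch B (log2 difference 1.22, SE 0.22, adjusted p = 0.022). Plaur, the urokinase receptor, read 8.56 and 7.75 in batch A and 7.49 and 6.69 in batch B (log2 difference -1.07, SE 0.15, adjusted p = 0.0149). Mgp, which inhibits calcification, rose by 0.88 on top of a genotype difference that left its batches overlapping. Of 15 claudin and tight junction genes, limma called 0 (2 at an unadjusted p under 0.05, against 3986 of all 11874 genes). Fn1, Plaur and Mgp differed by 0.38, -0.67 and -1.49 without the batch A Apc null array. Fn1, Plaur and Mgp differed by 0.81, -0.67 and -1.78 without the batch B Gata6 null/Apc null array.

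Lists of lipid and small molecule metabolism had 1 to 4 members that passed. Over all genes the shares were 7.53% higher and 9.12% lower. Of 26 cholesterol synthesis genes 3 rose (11.5%), Stard4, Hmgcs1 and Sc5d, by 0.42, 0.86 and 0.52, and the list median was 0.04. With probe sets averaged the adjusted p was 0.127 for Stard4 and 0.137 for Sc5d. Of 17 PPAR target genes 1 rose (5.88%), Pparg itself, by 0.99. Among 16 xenobiotic and retinoid genes 4 rose (25%). Adh1, which oxidises retinol, read 8.96 and 7.90 in batch A and 10.03 and 10.26 in batch B (log2 difference 1.72, SE 0.28, adjusted p = 0.0179), and Cyp26b1, which degrades retinoic acid, read 4.50 and 4.38 in batch A, a mean below the filter level of 4.45, and 6.02 and 5.27 in batch B. Of 18 ion and water transport genes 1 rose (5.56%) and 2 fell (11.1%), near the shares of all genes. Slc4a4, the sodium bicarbonate cotransporter, rose by 1.11, while the water channel gene Aqp1 fell by 0.96 and the potassium channel gene Kcnk5 by 0.96. Kcnk5 had an adjusted p of 0.0569 with probe sets averaged. Of 14 metallothionein and zinc transporter genes 1 rose (7.14%), Mt3, by 0.91, and 1 fell (7.14%), Slc39a10, by 0.60. Hmgcs1 and Pparg differed by 0.46 and 0.49 without the batch A Gata6 null/Apc null array. Slc4a4, Aqp1, Kcnk5, Mt3 and Slc39a10 differed by 0.46, -0.47, -0.58, -1.27 and -0.38 without the batch A Apc null array. Aqp1, Mt3 and Slc39a10 differed by -0.29, -1.61 and -0.30 without the batch B Gata6 null/Apc null array.

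**Figure D4:**
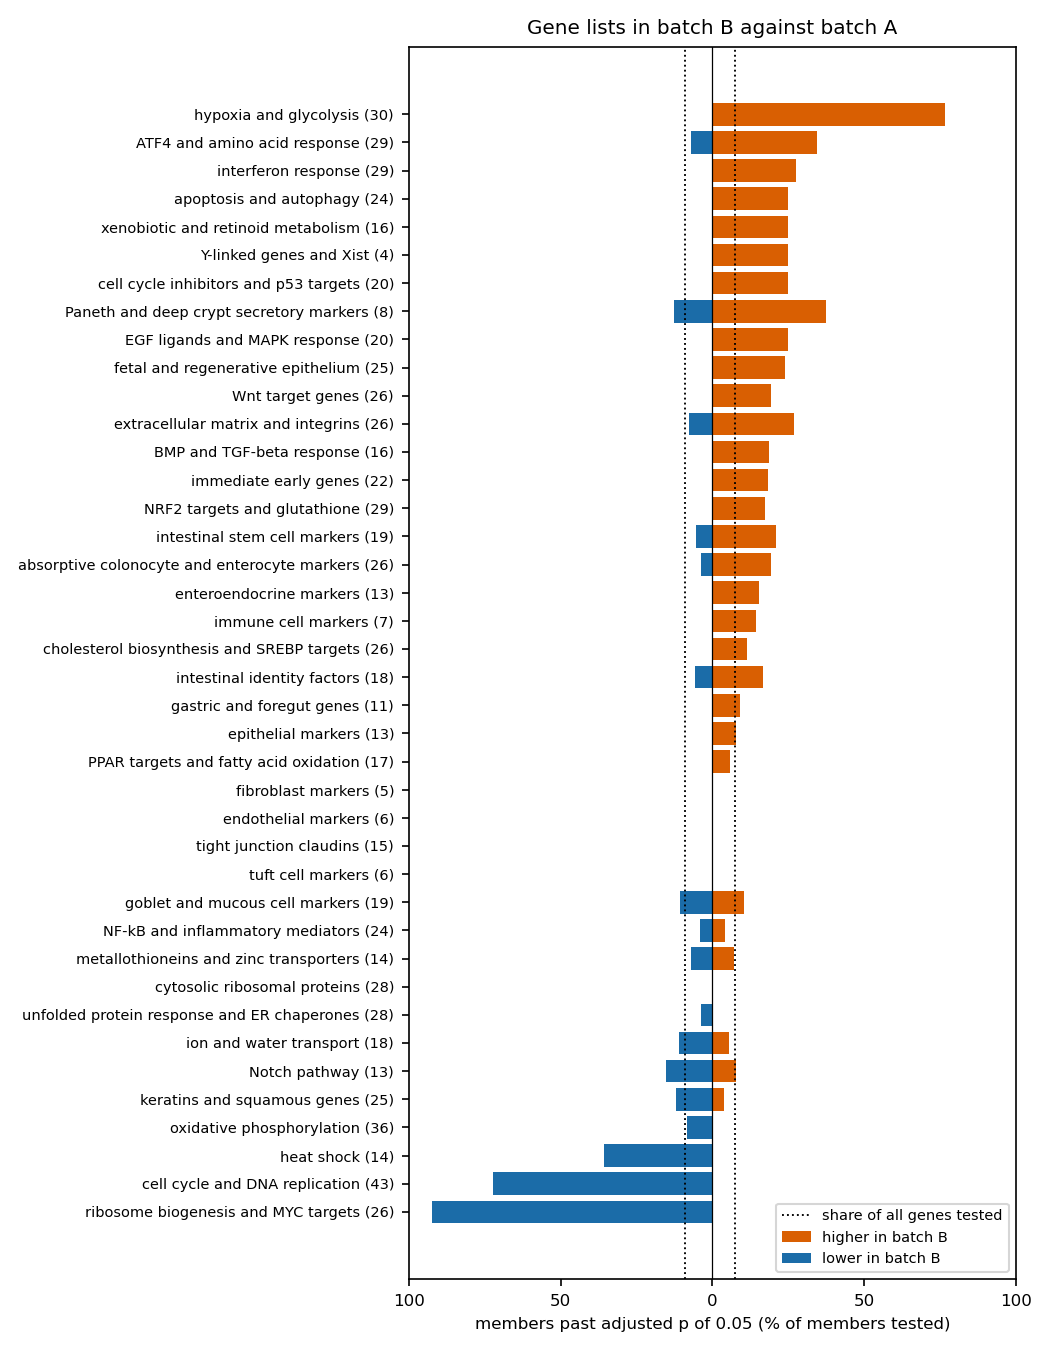
Share of the tested members of each of 40 gene lists that passed an adjusted p of 0.05, higher in batch B to the right and lower to the left, in percent, with the number of members tested in parentheses. Dotted lines mark the share over all genes, 7.53% higher and 9.12% lower; the longest bars are hypoxia and glycolysis to the right and cell cycle and ribosome biogenesis to the left.

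The largest single increases included genes of no list. Lrg1, a secreted glycoprotein that modulates TGF-beta signalling, read 6.17 and 5.38 in batch A and 8.93 and 9.31 in batch B, a 10.2-fold difference (log2 3.35, SE 0.29, limma adjusted p = 0.0111). Cpq, a secreted carboxypeptidase, read 3.998 and 4.64 in batch A and 6.86 and 8.22 in batch B, with a batch A mean below the filter level of 4.45, so that it was tested only through batch B and no fold is given. Ppp1r3b, which directs protein phosphatase 1 to glycogen, read 5.17 and 4.48 in batch A and 7.86 and 7.86 in batch B, an 8.22-fold difference (SE 0.23 on the log2 scale). The adjusted p was 0.00848 for Cpq and 0.00848 for Ppp1r3b. For these 3 genes both batch B arrays lay above both batch A arrays.

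Further genes of this set act outside the cell or on DNA. Igfbp4, which binds insulin-like growth factors, read 7.55 and 7.91 in batch A and 10.43 and 10.52 in batch B (log2 difference 2.74, SE 0.12, adjusted p = 0.00622). Ltbp3, which holds latent TGF-beta in the matrix, read 5.67 and 5.50 in batch A and 7.99 and 8.92 in batch B (log2 difference 2.87, SE 0.28, adjusted p = 0.0115). Tet2, which oxidises methylated cytosine, read 5.93 and 6.64 in batch A and 8.77 and 8.98 in batch B (log2 difference 2.59, SE 0.19, adjusted p = 0.00848). Camk2n1, an inhibitor of the kinase CaMKII, rose by 2.76, and by 1.68 without the batch A Gata6 null/Apc null array. Prr15 rose by 2.73. Prr9 passed at 4.42 and 4.07 against 5.93 and 8.23, and Lemd1 at 3.30 and 4.07 against 6.12 and 6.26. For both the batch A mean lay below the filter level, so they were tested only through batch B. Prr15 differed by 1.68 without the batch A Apc null array. Prr9 differed by 1.69 without the batch B Gata6 null/Apc null array.

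The largest decrease was that of Csprs, a component of the Sp100-rs family, at 7.26 and 8.25 in batch A and 5.35 and 5.33 in batch B, a 5.34-fold difference (log2 -2.42, SE 0.27, adjusted p = 0.0115). Acta1, the actin of skeletal muscle, read 8.03 and 6.78 in batch A and 5.27 and 5.03 in batch B (log2 difference -2.26, SE 0.28, adjusted p = 0.0118). Fgf13, an intracellular FGF homologue, fell by 1.76 and Efhd2, a calcium-binding protein gene, by 1.64. Efhd2 had tight pairs, with a mean of 10.99 (SD 0.02, 2 arrays) in batch A and 9.34 (SD 0.09, 2 arrays) in batch B (adjusted p = 0.00757). Another probe set of Efhd2, with a mean of 8.94 and so above the filter level, had a log2 difference of only -0.08. The size of the Efhd2 decrease therefore depends on the probe set.

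**Figure D5:**
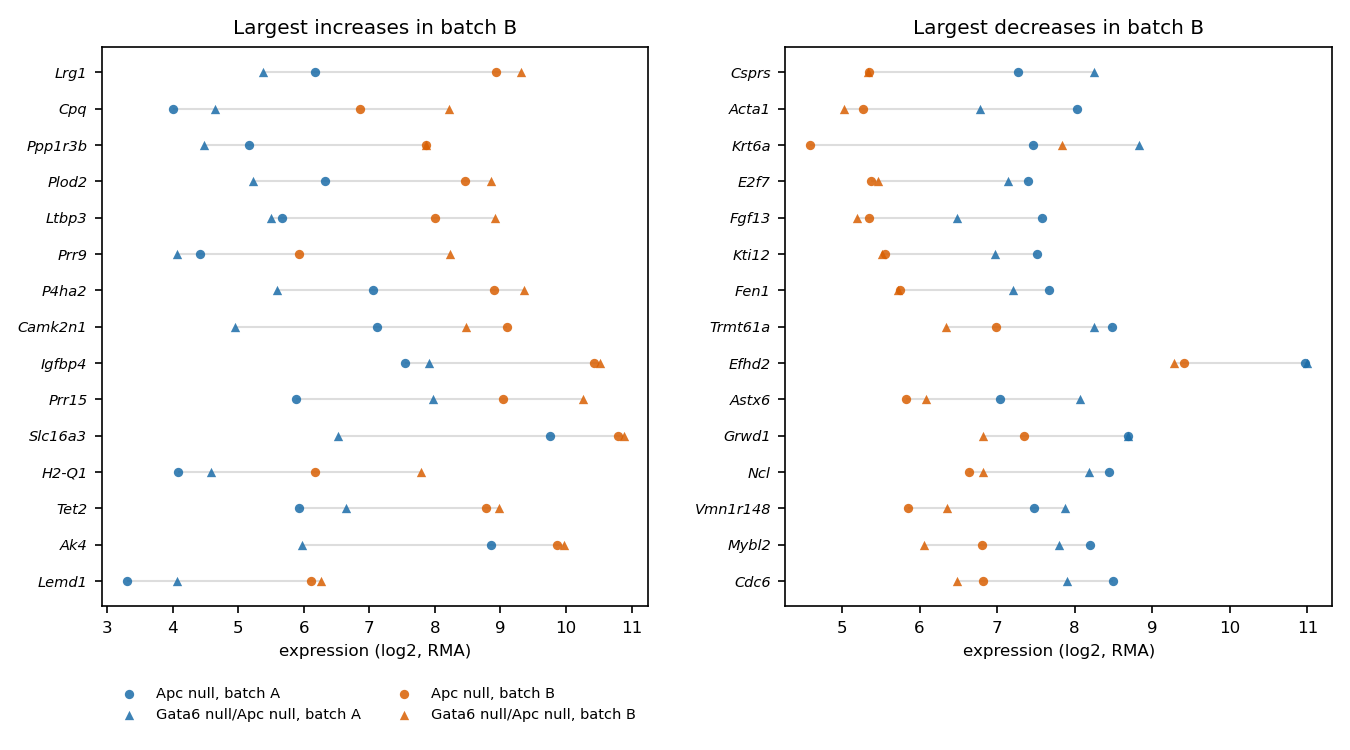
Expression (log2, RMA) on each array for the 15 genes with the largest increase (left) and the 15 with the largest decrease (right) among those that passed; circles are Apc null, triangles Gata6 null/Apc null, blue batch A and orange batch B. The batches do not overlap except for Krt6a, and for Slc16a3 and Ak4 the batch A Gata6 null/Apc null array (6.52 and 5.96) lies apart from the other 3 arrays.

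A pair of further gene groups was assembled after the values were seen, so their counts are only a description. Of 15 circadian clock genes, 6 were past the threshold (40%), all higher, against 7.53% of all genes higher and 9.12% lower. The median log2 difference of the group was 0.63. Per3, a repressor of the clock, read 6.20 and 6.86 in batch A and 8.19 and 8.82 in batch B (log2 difference 1.98, SE 0.16, adjusted p = 0.00939). Dbp, a clock output factor, read 5.46 and 4.99 in batch A and 6.66 and 7.52 in batch B (log2 difference 1.87, SE 0.33, adjusted p = 0.0204). The others were Bhlhe40, which HIF also induces, at 1.41, Cry2 at 1.11, Tef at 0.80 and Npas2 at 0.73. Clock itself read 7.94 and 7.52 against 7.35 and 7.34 and did not pass (adjusted p = 0.188), and Nr1d2 differed by 0.04. The hour of harvest is not given by the labels. Npas2 differed by 0.32 without the batch A Gata6 null/Apc null array. Cry2 differed by 0.65 without the batch A Apc null array. Cry2 differed by 0.37 without the batch B Gata6 null/Apc null array.

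Of 9 genes of multicopy families that are best known from testis or from receptor clusters, 8 were lower past the threshold (88.9%). The shares of all genes were 9.12% lower and 7.53% higher. The median log2 difference of the group was -1.51. Csprs, Astx6 and Vmn1r148 of this group are among the 15 largest decreases, so its count follows in part from how it was chosen. The group median was 7.11 and 7.79 in batch A and 5.69 and 5.76 in batch B. Ssty1, a Y-linked gene of spermatids, read 6.72 and 7.70 in batch A and 5.56 and 5.85 in batch B, and Vmn1r148, a vomeronasal receptor gene, read 7.47 and 7.88 against 5.85 and 6.35. Members of such families have near-identical copies, so a probe set may read several of them, and which copies it read is uncertain. Single-copy genes of the Y chromosome differed among themselves: Kdm5d rose by 0.66, Uty read 6.24 and 6.38 against 6.02 and 6.55, and Usp9y read 4.58 and 7.36 against 4.50 and 4.51, bright on the batch A Gata6 null/Apc null array alone. Xist, the RNA of the inactive X, lay between 3.68 and 3.74 on the 4 arrays, below the filter. Kdm5d differed by 0.43 without the batch A Apc null array.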

How the data were processed

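The table holds log2 expression per probe set of an Affymetrix mouse array with perfect-match probes, deposited by the authors after RMA with affy, per the submitters' processing notes, versions not given in the sources used here. This method includes quantile normalization, which takes out shifts of a whole array and compresses low values. Per the labels' protocols, 25 ng of total RNA with an integrity number of at least 9 was amplified, which adds noise to dim probe sets.

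Of 45141 probe sets in the table, 104 controls were set aside. The platform annotation gave 1 gene to 28898, several to 551, from which none was named, and none to 15588. Entrez identifiers of 28689 probe sets matched a RefSeq table of GRCm38.p6, and 0 symbols changed. The probe set of highest mean stood for its gene. A gene was tested if that mean reached the 40th percentile over probe sets (4.45).

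The batch difference was fitted in R 4.3.3 with limma 3.58.1 (lmFit with genotype as a fixed block, then eBayes with trend), with Benjamini-Hochberg adjustment over 11874 genes. A gene was called at an adjusted p below 0.05. Unless another tool or setting is named, each adjusted p is two-sided and from this limma fit. In simulated data with the fitted spread, more of the calls were false than the threshold states. The labels do not say that arrays came from separate mice, so p-values may measure technical spread. The genotype block pairs arrays through their labelled genotype, and the log2 differences of the pairs correlated at 0.675 across genes.

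The comparison, the 40 gene lists and the other choices were made with earlier results of these data known, and 2 lists were added after the values of this comparison were seen. Lists are described by counts and medians, with no set test. Named genes are the 15 largest increases and 15 largest decreases among genes past the threshold with 1 sign in both genotypes (predicted and clone names left out), in every list the 4 called members of smallest p, or the first 2 by p where none was called, Gata6, Apc, and 6 genes with opposite signs in the genotypes; other names were chosen after their values were seen. Alternatives were no block, no trend, other filters, averaged probe sets, no shared-sequence probe sets, arrays centred on their median, each genotype alone and each array left out.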

Additional observations from a re-analysis of the deposited data

Results flagged for a closer look

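The batch difference ran in opposite directions in the genotypes for some genes. The 6 with the largest such difference are given with batch B minus batch A on the log2 scale; none of these differences was tested, since an interaction leaves no residual degrees of freedom. Basp1, a membrane-bound protein of neurons and epithelia, differed by -1.24 in the Apc null arrays and by 1.20 in the Gata6 null/Apc null arrays, 2.44 apart. Mtus2, a microtubule-associated protein gene, differed by -1.81 and 1.17, which is 2.98 apart. The water channel gene Aqp4 differed by -0.92 and 2.04, which is 2.96 apart, and read 10.48 and 5.77 in batch A and 9.56 and 7.81 in batch B. Spink1, a trypsin inhibitor, differed by -0.91 and 2.39, which is 3.30 apart. Cyp1b1, a cytochrome P450, went the other way, at 1.01 and -0.97, a gap of -1.98. Lgals9, galectin-9, did as well, at 0.92 and -0.99, a gap of -1.90.

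Of the gene lists, the 13 enteroendocrine markers had medians of opposite sign, 0.13 in the Apc null arrays and -0.26 in the Gata6 null/Apc null arrays, a gap of -0.40 that was not tested.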

How the results depend on the processing

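Of 1977 genes called with genotype as a replicate block, 0 were called with no replicate block by genotype and 0 with any 1 array left out (lowest and highest 0, with 1441 to 1649 at an unadjusted p under 0.05), because the genotype difference then enters the spread; a block could not be kept there, as it leaves no residual degrees of freedom. Without the trend 873 were called, with arrays centred on their median 3107 (1442 higher, 1665 lower), and 303 were 2-fold apart in both genotypes with no test, a rule chosen after seeing the data. Members of all lists called fell from 194 to 0 with no block or an array left out (0 to 0) and to 85 with no trend. Named genes called went from 132 to 0, 0 and 75 likewise. Hypoxia members higher went from 23 to 0, 0 and 8, cell cycle members lower from 31 to 0, 0 and 18, and ribosome biogenesis members lower from 24 to 0, 0 and 15. Other filters, averaged probe sets and no shared-sequence probe sets gave 1791 to 2254 calls. Under these settings no named gene called here changed sign. The sign within each genotype is no further check. The largest changes were chosen for 1 sign in both genotypes, and 0 of the 1977 called genes had opposite signs in them.

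Leaving out 1 array unbalances the genotypes, so genes that differ between genotypes could change sign. The lowest and highest log2 differences were -0.53 and 2.24 for Lgr5, -0.44 and 1.94 for Dkk2, -0.99 and 2.23 for Sp5, -1.51 and 2.91 for Spink4, -0.90 and 2.34 for Avil, -0.19 and 1.67 for Clu, -1.61 and 3.43 for Mt3, -0.73 and 0.048 for Ocln, -1.78 and 3.54 for Mgp, -0.045 and 0.98 for Twist2, -0.15 and 0.89 for Fbln1, and -0.52 and 0.27 for Gata6. The number of arrays and dim probe sets limit the precision of all values.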
